A study of Mus musculus with 4 samples.

Results

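APC1 and APC2 were the 2 groups of nuclei annotated as adipocyte progenitor cells in a single-nucleus ATAC-seq atlas of mouse inguinal white adipose tissue, and they were compared here within the same mice. Every nucleus annotated to either cluster was taken, the nuclei were summed per mouse and cluster, and mice with at least 10 nuclei of each cluster were kept. This gave 507 APC1 and 542 APC2 nuclei in 18 of the 21 mice, 1049 of the 1227 nuclei annotated APC1 or APC2 and of the 32552 nuclei in all. The animals were 8-week-old male C57BL/6 mice (C57BL/6J by the treatment protocol) with no genetic alteration named. The 3 mice of day 0 stayed at 22 °C, the cold mice spent 1, 3 or 7 days at 6.5 °C, and the CL mice received the Adrb3-selective agonist CL-316,243 at 1 mg/kg for 1, 3 or 7 days, with 3 mice for each time and stimulus. The paired mice were 3 of day 0, 9 cold and 6 CL. Nuclei came from whole inguinal fat, and B and T lymphocytes made up 58.2% to 90.8% of the nuclei in 18 of the 21 mice.

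ATAC-seq reports which stretches of DNA the transposase Tn5 can reach in a nucleus. Open promoters and enhancers are reached, so the pattern of accessible peaks is a record of the regulatory DNA in use rather than of RNA. Adipocyte progenitors of the subcutaneous depot are fibroblast-like cells that carry the receptor PDGFRα and lie along vessels, and in mice they are commonly followed by the surface proteins CD34 and Sca1 (Ly6a). Mural cells, the pericytes and smooth muscle cells around the vessel wall, are known for PDGFRβ and for contractile proteins such as smooth muscle actin (Acta2) and smooth muscle myosin (Myh11). The inguinal depot also encloses a lymph node, whose stromal cells supply lymphocytes with survival factors such as BAFF (Tnfsf13b), RANKL (Tnfsf11) and IL-7.

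The 18 APC1 libraries held 13 to 105 nuclei and 11195 to 343092 counts on peaks, and the 18 APC2 libraries 13 to 51 nuclei and 39400 to 154461 counts. A count is a nucleus with a peak open, since the deposited matrix holds only 0 and 1, and a gene's count is the sum over peaks in its body and the 2000 bases upstream. Levels are given as CPM, counts scaled to an equal library total. APC2 nuclei were the more deeply covered, with a median of 2034 ± 835 counts per nucleus against 1451 ± 552 in APC1 (mean ± SD of the mice's medians, n = 18), higher in 16 of 18 mice (exact sign-flip permutation test, two-sided, adjusted p = 0.0004). APC1 had the larger share of its counts in peaks within 2000 bases of a gene start, 33.5% ± 1.71 against 31.55% ± 0.972, in 18 of 18 mice (adjusted p = 3.8e-05 by the same exact test). Barcodes are reused between mice, and 330 of the 1227 APC nuclei carry a barcode that a nucleus of another mouse carries too. The part of depth and of the start-peak share in the differences below was examined only through nuclei thinned to an equal depth and through peaks away from gene starts.

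The 7 genes that the study names for these clusters gave a mixed picture of the APC2 label. Pdgfra (GRCm38 chr5:75152292-75198215), the receptor that defines the progenitor lineage, did not pass the test between the clusters. It ranged over the mice from 0 to 174 CPM in APC1, with a median of 88.1, and from 32.9 to 144 in APC2, with a median of 68.1, and it was higher in APC1 in 9 mice and in APC2 in the other 9. The log2 fold change (APC1 minus APC2) was 0.09 ± 0.18 (SE, adjusted p = 0.84, edgeR quasi-likelihood test with the mouse as a block). Among all 12 annotated clusters Pdgfra was highest in APC1 (84.7 CPM) and APC2 (75.8), with beige adipocytes next at 40.2. Such levels by cluster, called CPM over all mice below, are means over every mouse with at least 10 nuclei of that cluster. The number of mice behind them differs between clusters.

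Ebf2 (chr14:67233292-67430918), a transcription factor of adipocyte precursors and of the brown and beige fate, separated the clusters. Its level ran from 230 to 810 CPM in APC1 (median 502) and from 28.6 to 274 in APC2 (median 92.8), and every mouse was higher in APC1. The means were 517 ± 157 and 107 ± 66.4 CPM (SD, n = 18), and the fitted log2 fold change was 1.90 ± 0.15 (adjusted p = 3.9e-36, edgeR). The fit adds a prior count of 2 to each library, so fitted changes of sparse genes understate the change in the means. Each SE of a fitted change, for genes and peaks, is that change divided by the root of the test's F statistic. It shrinks with the fitted change and so understates the counting error of sparse genes. APC1 stood level with the beige adipocyte cluster in Ebf2 (521 and 518 CPM over all mice) and above the adipocyte cluster (365).

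Cd34 (chr1:194938819-194961279), a sialomucin of progenitor and endothelial cells, was at or near 0 in APC2. It ranged from 45.0 to 173 CPM in APC1 with a median of 82.7, against 0 in 14 of the 18 APC2 libraries and at most 28.6 in the others, so the mice of the clusters did not overlap. In all, 87 counts fell on the gene in APC1 and 5 in APC2, and the log2 fold change was 1.61 ± 0.19 (adjusted p = 1.6e-15, edgeR). Ly6a, which encodes Sca1, gave 52.0 ± 52.0 against 4.88 ± 9.32 CPM and was at 0 in 13 APC2 libraries. It was higher in APC1 in 13 mice and lower in 1 (log2 fold change 1.02 ± 0.20, adjusted p = 3.5e-06, edgeR).

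The mural genes lay on the APC2 side. Myh11 ran from 114 to 345 CPM in APC2 (median 231) and from 0 to 129 in APC1 (median 64.5), higher in APC2 in 18 of 18 mice (log2 fold change -1.47 ± 0.17, adjusted p = 3.1e-16, edgeR). Acta2 was also higher in APC2 in all 18 mice, at 109 ± 47.7 against 33.4 ± 36.9 CPM (-1.05 ± 0.19, adjusted p = 4.1e-07). Pdgfrb was higher in APC2 in 15 mice and in APC1 in 3, at 185 ± 103 against 89.8 ± 85.9 CPM (-1.05 ± 0.17, adjusted p = 1.4e-08). Its ranges, 30.5 to 467 and 0 to 340 CPM, overlapped widely. At the peaks within 2000 bases of its start Pdgfrb gave -0.10 (adjusted p = 0.92, edgeR), and it was not called in nuclei thinned to 700 counts. Each of these genes was more open in APC2 than in the cluster annotated as vascular smooth muscle, which held 75.8 CPM on Myh11, 7.70 on Acta2 and 7.30 on Pdgfrb.

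**Figure D1:**
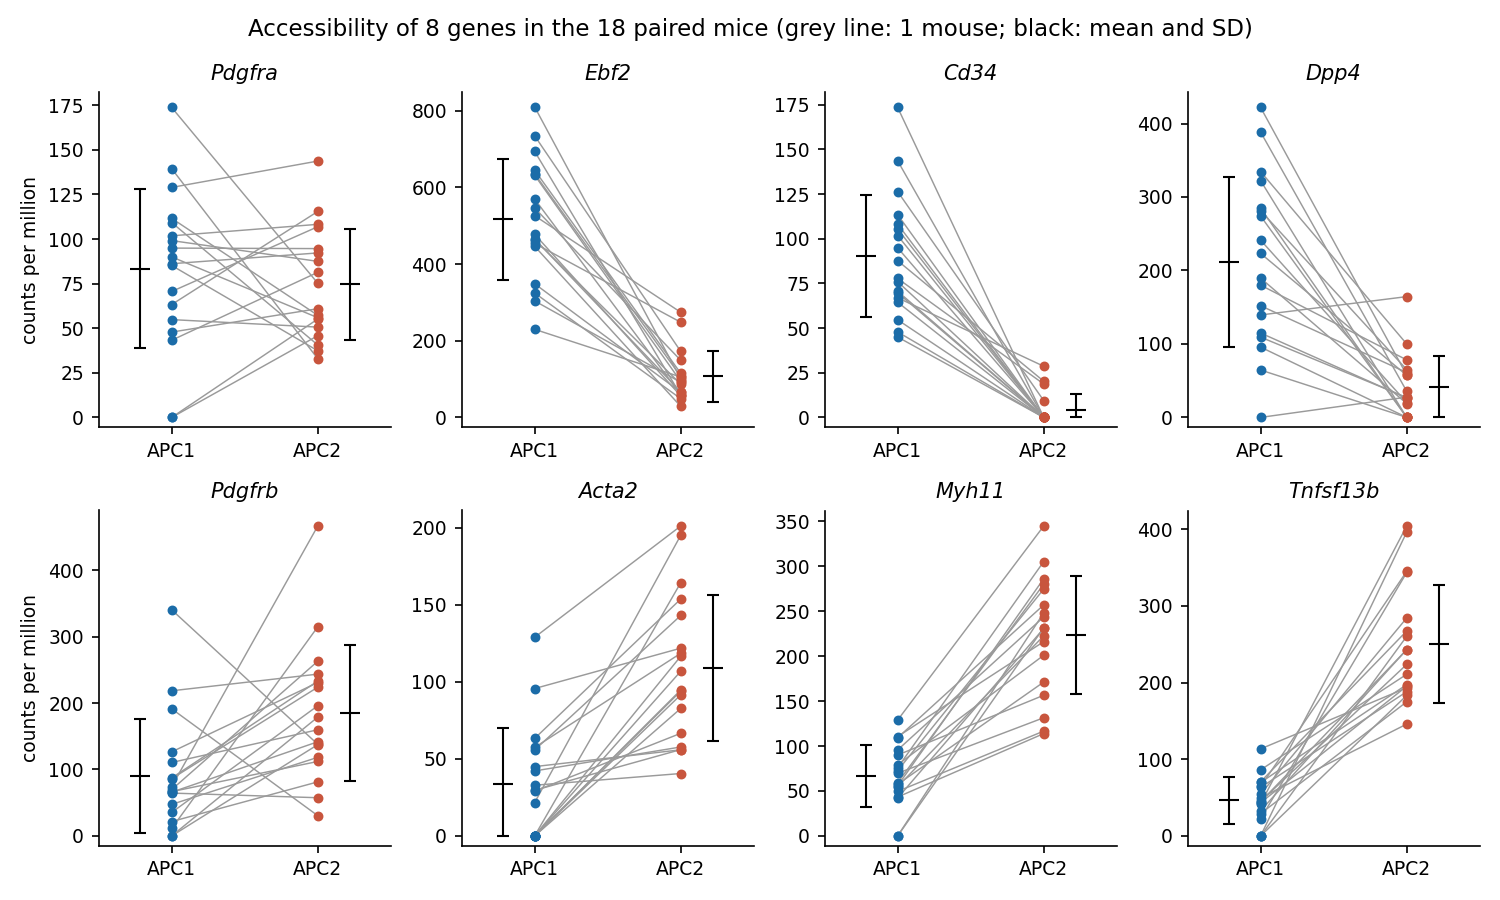
Accessibility of 8 genes in CPM (vertical axes, each gene on its own scale) in APC1 and APC2 of the 18 paired mice. Grey lines join the clusters of a mouse, and black bars show mean and SD, drawn no lower than 0. Ebf2 and Cd34 are lower in APC2 in 18 of 18 mice and Dpp4 in 16, Acta2, Myh11 and Tnfsf13b are higher in APC2 in 18 of 18, and Pdgfra goes either way.

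The progenitor and mural marker lists include the 7 genes above, so they do not repeat the split independently. Outside those genes, Dpp4 was the only progenitor marker called. Of 12 progenitor markers, 10 had the 50 counts over all libraries that the test required, and 4 of these were higher in APC1 and 0 in APC2: Ebf2, Cd34, Ly6a and Dpp4. The median log2 fold change of the 10 was 0.37, against -0.04 over all 11527 genes tested. Of all genes 7.09% were higher in APC1 and 13.2% in APC2. Dpp4, a peptidase that marks interstitial progenitors, ranged from 0 to 422 CPM in APC1 (median 206) and from 0 to 164 in APC2 (median 27.3), and was higher in APC1 in 16 mice (1.74 ± 0.17, adjusted p = 2.4e-22, edgeR). T lymphocytes carry it too, at 236 CPM in the Cd8 cluster. Fap, F3, Col15a1, Cd55, Zfp423 and Pdgfra did not pass the test, and with library totals in place of TMM factors Cd55 and Zfp423 joined the APC1 side, which made 6 of 10. Summed over the list, APC2 held 887 ± 144.5 CPM against 1859 ± 322 in APC1 (lower in 18 of 18 mice). Over all mice APC2 held 893 CPM on the list, below the 1422 of the adipocyte cluster and the 936 of vascular endothelium.

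The median of the 10 mural markers tested was -1.03. Of these, 9 (90.0%) were higher in APC2, against 13.2% of all genes, and 0 in APC1. Beside the 3 genes above these were Tagln (transgelin, an actin-binding protein of smooth muscle), Rgs5, Notch3, Des (the intermediate filament desmin) and Kcnj8 and Abcc9, which form the ATP-sensitive potassium channel of pericytes. Kcnj8 rose from 24.3 ± 28.5 to 96.3 ± 35.8 CPM and Abcc9 from 119 to 231 CPM on average. Abcc9 was not called in nuclei thinned to 700 counts. Cspg4, the NG2 proteoglycan, did not pass at -0.32. The summed list reached 1073 to 1516 CPM in APC2 and 228 to 838 in APC1, with no overlap, and 1268 CPM over all mice made APC2 the highest of the 12 clusters, ahead of APC1 (524), adipocytes (517) and the smooth muscle cluster (501). That last cluster held 2239 CPM on the 8 skeletal muscle markers, against 152.6 in APC1 and 178.7 in APC2.

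Of 14 lymph node stroma markers only 8 had enough counts. Of the 8, 4 (50.0%) were higher in APC2, against 13.2% of all genes, and 0 in APC1. Tnfsf13b (chr8:10006467-10039072), the B cell survival factor BAFF, ranged from 146 to 404 CPM in APC2 and from 0 to 113 in APC1, so the ranges did not meet (log2 fold change -1.96 ± 0.18, adjusted p = 1.8e-26, edgeR). No other cluster was above 54.8 CPM. Il7, at 77.4 ± 32.0 against 16.6 ± 21.7 CPM, was higher in APC2 in all 18 mice, and Tnfsf11, at 71.8 ± 37.1 against 13.6 ± 28.4 CPM, in 16. Bst1, a surface enzyme of stromal cells that support B lymphocytes, was higher in 17 mice, but 46.5% of its counts lie in peaks it shares with Fbxl5. Unlike Tnfsf13b, these 3 genes were not particular to APC2 among the 12 clusters. Il7 stood at 73.3 CPM in APC2, 68.6 in dendritic cells and 66.8 in adipocytes. Tnfsf11 stood at 71.5 CPM in both APC2 and the Tcell cluster. Bst1 was higher in B cells (134.7 CPM) than in APC2 (115.0). Ltbr, Ch25h, Il33 and Pdpn did not pass. The chemokines Ccl19, Ccl21a and Cxcl13, which define lymph node reticular cells, were below the count minimum and were not tested. The summed list was higher in APC2 in 18 of 18 mice, at 936 ± 106 against 412 ± 119 CPM, and APC2 was again the highest of the 12 clusters. Of the defining progenitor genes, Cd34 and Ly6a were at 0 in most APC2 libraries, Ebf2 was lower than in APC1 but above 0 in every APC2 library, and Pdgfra did not pass the test. APC2 led all clusters in the mural and the lymph node stroma lists. It is called by its annotated name.

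Markers of other cell types were summed in the same way. The 8 B cell markers took 0.0177% ± 0.0129 of the counts in APC1 and 0.0183% ± 0.00694 in APC2 (exact sign-flip test, adjusted p = 0.87), the 8 T cell markers 0.0180% ± 0.0105 and 0.0138% ± 0.00293 (adjusted p = 0.24), and the 9 myeloid markers 0.0161% ± 0.0106 and 0.0150% ± 0.00578 (adjusted p = 0.87). On the same scale as above the B cell list held 223 and 235 CPM, against 1825 in the B cell cluster. Single members still differed: Pax5 and Csf1r were higher in APC2 (-0.69 and -1.01) and Cd2 in APC1 (0.86). Nuclei with 2 or more counts on B or T cell markers made up 16.8% of APC1 and 20.8% of APC2. The 10 blood endothelial markers summed to 457 and 468 CPM, against 1761 in the endothelial cluster, and none of the 3 tested passed. The single lymphatic endothelial marker tested, Reln, was higher in APC2 (61.5 ± 30.6 against 8.96 ± 16.9 CPM), and the 6 markers of that list summed to 69.3 and 112 CPM. The 6 mesothelial markers summed to 50.2 and 20.1 CPM, and none had enough counts to be tested. The 6 Schwann cell markers differed more. They summed to 422 ± 159.9 CPM in APC1 and 212 ± 66.3 in APC2, higher in APC1 in 16 mice, against 219 to 618 CPM in the clusters other than APC1 and APC2. Most of this was Mbp (myelin basic protein), at 356 against 148 CPM (0.90 ± 0.15, adjusted p = 1.3e-08, edgeR). Sox10, which defines the lineage, was below the count minimum. The part of Schwann cells in the differences was not tested.

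Over all genes, 817 of 11527 (7.09%) were higher in APC1 and 1518 (13.2%) in APC2 at an adjusted p under 0.05 (edgeR, 18 pairs). In a fit of the 2502 genes with 4 times the required counts, 546 and 614 were called, so the called share rose with counts. The balance depended on the scaling: with library totals in place of TMM factors, 1169 (10.1%) were higher in APC1 and 1245 (10.8%) in APC2, and the median of all genes moved from -0.04 to 0.04. The clusters were drawn by the study from these same nuclei and peaks, so the test measures how evenly a difference runs through the mice and is no independent evidence that 2 cell populations exist. In 20 genes (0.174%) every APC1 library was above every APC2 library, and in 32 (0.278%) the reverse held. Profiles over the 11527 genes were compared as log2 of CPM plus 1, with all nuclei of a cluster pooled over all mice. Those of APC1 and APC2 correlated at r = 0.733 as a description, since genes are not independent and the clusters share mice. APC1 gave r = 0.725 with adipocytes, and APC2 gave 0.670. The pools were not matched in depth, and sparse counts lower r. The values therefore do not rank how close APC1 is to adipocytes and to APC2. With vascular endothelium the clusters were alike, at 0.694 for APC1 and 0.701 for APC2.

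Among genes averaging 10 or more counts a library, those with the largest differences toward APC1 included, beside Ebf2, Fyn, Slc28a1, Tspan5, Creb5, Slc4a4, Cped1, Nid1, Adam19, Esr1 and Atp10a. Fyn, a Src family kinase (chr10:39368855-39565381), ran from 209 to 908 CPM in APC1 and from 35.5 to 158 in APC2. Creb5, a CREB family transcription factor (chr6:53287270-53700376), ran from 411 to 1185 CPM in APC1 and from 101 to 305 in APC2. Neither pair of ranges overlapped, and the log2 fold changes were 1.86 ± 0.14 and 1.70 ± 0.13 (adjusted p = 3.3e-35 and 4.3e-37, edgeR). The nucleoside transporter Slc28a1 gave 299 ± 99.3 against 50.4 ± 30.3 CPM, again without overlap. Nid1 (nidogen), a basement membrane protein, stood at 371 ± 146 against 84.0 ± 25.9 CPM. Esr1, the estrogen receptor α, was higher in APC1 in 17 of 18 mice (1.43 ± 0.14) over its whole body, but its peaks within 2000 bases of the start gave -0.02 (adjusted p = 0.99).

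With the same minimum the 12 largest differences toward APC2 were in Adamts20, Nos1ap, Rnf150, Myo10, Gcnt2, Sorcs2, Prdm11, Ddah1, Smap2, Tns3, 2010111I01Rik and Etv6, and every one was higher in APC2 in all 18 mice. Adamts20, a secreted metalloprotease (chr15:94270163-94465418), was at 0 in 9 APC1 libraries and at most 99.1 CPM in the rest, against 98.6 to 402 in APC2 (-2.51 ± 0.18, adjusted p = 5.0e-42, edgeR). Nos1ap, an adaptor of neuronal nitric oxide synthase (chr1:170302668-170589861), ranged from 283 to 658 CPM in APC2 and from 0 to 209 in APC1 (-2.44 ± 0.17, adjusted p = 2.7e-44). Ddah1, the hydrolase that clears an inhibitor of nitric oxide synthases, stood at 369 ± 141 against 70.9 ± 43.5 CPM. Rnf150, a RING finger protein, gave 492 ± 82.4 against 82.9 ± 44.1 CPM with no overlap. Etv6, an ETS family repressor, was open in both, at 800 ± 177 and 248 ± 114 CPM (-1.70 ± 0.13). Myo10, a myosin of filopodia, and Tns3, a tensin of focal adhesions, both link to the actin skeleton, at 380 ± 68.9 against 68.3 ± 58.2 and 482 ± 122 against 143 ± 60.8 CPM.

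Contractile genes followed the mural markers, with which the list shares Acta2, Myh11, Tagln and Des. Of 15 smooth muscle and SRF pathway genes tested, 9 (60.0%) were higher in APC2, against 13.2% of all genes, and 0 in APC1. The median was -0.70. Mylk, the kinase that phosphorylates myosin light chain, gave 427 ± 107 against 117 ± 57.5 CPM (-1.63 ± 0.15), and Synpo2, an actin-bundling protein, 635 ± 128 against 208 ± 94.6 CPM with 18 of 18 mice higher in APC2 (-1.51 ± 0.13). The tropomyosins Tpm1 and Tpm2 and vinculin (Vcl) were the remaining calls, and Vcl was not called with library totals or in thinned nuclei. The other 6, among them Srf itself (-0.34) and Lmod1 (-0.47), did not pass. Of the 15 genes, 3 had a log2 fold change above 0, all of them uncalled.

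Genes of NF-kB signalling, feedback inhibitors among them, lay on the APC2 side. NF-kB factors enter the nucleus once their IkB inhibitors are degraded downstream of TNF, IL-1 or lymphotoxin receptors, and the genes of those inhibitors are themselves known NF-kB targets. Of 15 genes tested, 11 (73.3%) were higher in APC2, against 13.2% of all genes, and 0 in APC1, with a median of -0.52. Library totals left 8. Nfkbie (IkBε) gave 113 ± 38.0 against 34.6 ± 42.1 CPM (-1.19 ± 0.19, adjusted p = 5.2e-09, edgeR), higher in APC2 in 16 mice. Nfkbiz, Birc3 and Bcl3 followed at -0.90, -0.92 and -0.71, each higher in APC2 in 15 or 16 mice, and Nfkbia and Tnfaip3, the feedback inhibitors IkBα and A20, at -0.63 each. Of the factors themselves Nfkb1 passed (-0.52) while Nfkb2 (-0.39) and Rela (0.06) did not. Of the receptor genes only Tnfrsf1b passed (-0.49), and not with library totals (adjusted p = 0.051, edgeR). The lymphotoxin receptor gene Ltbr (-0.32) and Tnfrsf1a (-0.059) did not pass. Without nuclei with lymphocyte marker counts Nfkb1, Nfkbia and Tnfrsf1b were no longer called. Nfkbiz, Tnfaip3 and Tnfrsf1b were not called in thinned nuclei, nor Nfkbia with DESeq2. Over all mice the summed list held 2228 CPM in APC2 and 1498 in APC1. Dendritic cells held 2949, macrophages 2346 and B cells 2242. Of 12 chemokines tested, Ccl9, Cxcl12 and Cx3cl1 (25.0%) were higher in APC2 and Ccl11 (eotaxin, 8.3%) in APC1. Over all genes the shares were 13.2% and 7.09%. Cxcl12, the ligand of CXCR4 and a retention factor for lymphocytes, stood at 94.6 ± 31.7 against 33.0 ± 34.2 CPM and was higher in APC2 in 16 mice.

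Growth factors and their receptors divided between the clusters. PDGFRα is a receptor for PDGF-A and PDGF-C, and PDGFRβ for PDGF-B and PDGF-D. Pdgfa was higher in APC2 (99.1 ± 48.6 against 11.5 ± 16.3 CPM, -1.51 ± 0.19, adjusted p = 3.0e-13, edgeR), while Pdgfc (115 ± 84.2 against 17.6 ± 19.1, 1.25 ± 0.19) and Pdgfd (67.3 ± 53.0 against 6.00 ± 8.31, 1.02 ± 0.20) were higher in APC1. Pdgfb was below the count minimum. Vegfd was higher in APC1 (0.76), and Vegfa, Hgf and Fgfr2 in APC2 (-0.73, -0.58 and -0.43), which gave 3 and 5 of 16 genes (18.8% and 31.2%). Hgf and Vegfd were not called with peaks within 2000 bases of the start alone. Hgf was not called with DESeq2 either, and leaving out a single mouse could undo its call. Of 35 TGF-β and BMP genes tested, 4 (11.4%) were higher in APC1 and 9 (25.7%) in APC2, against 7.09% and 13.2% of all genes. The 4 were the ligands Bmp7 and Tgfb2, follistatin (Fst), which binds activins, and Ltbp1. Bmp7, a BMP known for brown fat differentiation, stood at 78.6 ± 70.9 against 6.59 ± 10.8 CPM (1.22 ± 0.20, adjusted p = 1.2e-08, edgeR). Ltbp2 (286 ± 84.2 against 89.8 ± 75.9 CPM) and the SMAD family genes Smad1 (215 ± 47.4 against 114 ± 82.0) and Smad6 (329 ± 87.5 against 172 ± 77.6) were higher in APC2. Neither SMAD gene was called with peaks within 2000 bases of the start alone, and Smad6 and Ltbp1 were not called in thinned nuclei.

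Axon guidance families leaned toward APC2. These are paired families of secreted or membrane ligands (semaphorins, netrins, Slits, ephrins) and receptors (plexins, Unc5, Robo, Eph), and they act on vessels and mesenchyme as well as on axons. Of 49 genes tested, 4 (8.2%) were higher in APC1 and 19 (38.8%) in APC2, against 7.09% and 13.2% of all genes. The median was -0.27. None of the 23 receptors was higher in APC1 and 14 were higher in APC2, among them all 7 plexins tested (library totals gave 1 and 12). Of the 25 ligands 4 were higher in APC1 and 5 in APC2 (6 and 5 with library totals). The 4 were Sema3c, Ntn1, Sema3d and Slit3, all secreted. The 5 were all semaphorins, Sema3f, Sema4a, Sema5b, Sema6d and Sema7a (-0.96, -0.83, -1.14, -0.79 and -0.56), so that among 16 semaphorins 2 were higher in APC1 and 5 in APC2. Sema7a was not called with DESeq2 or without the mouse block, and leaving out a single mouse could undo its call. Sema4a was not called without nuclei with lymphocyte marker counts, nor Sema6d in thinned nuclei. Sema3c ran from 0 to 387 CPM in APC1 (median 182) and from 0 to 86.2 in APC2 (1.89 ± 0.18, adjusted p = 2.6e-23, edgeR), and Ntn1 averaged 206 against 50.5 CPM (1.34 ± 0.17). On the receptor side Unc5c, a netrin receptor, gave 241 ± 53.7 CPM in APC2 against 52.3 ± 63.0, Plxna4 224 ± 68.8 against 39.4 ± 31.7, and Robo2, a Slit receptor, 203 ± 52.9 against 49.7 ± 42.1. Unc5c and Plxna4 were higher in APC2 in all 18 mice and Robo2 in 17. The grouping by role was made after the values were seen, and receptors were not tested against ligands.

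Collagen genes were called in both directions. Of 33 collagen genes tested 10 (30.3%) were higher in APC1 and 6 (18.2%) in APC2, against 7.09% and 13.2% of all genes. With library totals the calls were 12 and 3. Col4a4 and Col4a6, chains of basement membrane collagen, were nearly closed in APC2: Col4a4 was at 0 in 11 APC2 libraries and gave 156 ± 81.8 against 8.61 ± 15.8 CPM (2.10 ± 0.18, adjusted p = 1.1e-27, edgeR). Other chains of the same collagen did not follow: Col4a2 was higher in APC2 at 435 against 301 CPM (-0.60 ± 0.13, adjusted p = 6.2e-05, edgeR), and Col4a1 gave -0.27 and did not pass. The fibrillar chains Col5a2 (252 ± 112 against 98.3 ± 36.7 CPM), Col3a1, Col1a2 and Col5a1 were higher in APC1 as well. None of these fibrillar chains was called with peaks within 2000 bases of the start alone. Leaving out a single mouse could undo the call of Col1a2 or Col5a1, and Col5a1 was not called in thinned nuclei. Col13a1, a transmembrane collagen, went the other way at 133 ± 47.0 CPM in APC2 against 26 ± 29.2 in APC1, in 18 of 18 mice.

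Transcription factors of mesenchyme were split. Of 18 tested, 4 (22.2%) were higher in APC1, among them Twist1, Twist2 and Osr2 (log2 differences of 1.03, 0.62 and 0.58), and 5 (27.8%) were higher in APC2. Over all genes the shares were 7.09% and 13.2%. Meox1, Meox2, Foxs1, Foxf1 and Tbx15 were higher in APC2, and Tbx15 was not called with library totals. Twist2 and Osr2 were not called without nuclei with lymphocyte marker counts or with start peaks alone. Leaving out a single mouse could undo the call of Osr2 or Tbx15. Foxs1, a forkhead gene of pericytes, gave 5 counts in APC1 and 59 in APC2. Of the 20 adipogenic factors, Ebf2, Klf4, Cebpb and Pparg (20.0%) were higher in APC1 and Nfia and Nfib (10.0%) in APC2, and 14 did not pass. Toward APC2 library totals left Nfib alone, and in thinned nuclei neither Nfia nor Nfib was called. Cebpb was not called with DESeq2, without nuclei with lymphocyte marker counts or with start peaks alone, and Pparg was not called in thinned nuclei. Leaving out a single mouse could also undo the call of either. Pparg, the master factor of fat cell differentiation, differed modestly, at 197 ± 88.5 against 133 ± 62.0 CPM (0.48 ± 0.16, adjusted p = 0.013, edgeR). Of the 6 adipocyte markers tested, Pparg and its targets Fabp4 and Lpl (0.81 and 0.56) were higher in APC1. Lpl was not called without nuclei with lymphocyte marker counts or with start peaks alone, and leaving out a single mouse could undo its call. Lipe, the hormone-sensitive lipase, was higher in APC2 (-0.47, not called with library totals), and Plin1 (-0.23) and Car3 (-0.075) did not pass. The 10 adipocyte markers summed to 584 ± 163 CPM in APC1 and 524 ± 142 in APC2. Among 11 Notch genes Dll1, Notch1 and Notch3 (27.3%) were higher in APC2, against 13.2% of all genes, and none in APC1. Notch1 was not called in thinned nuclei. Wnt and Hox genes were called near the rate of all genes, 2 and 3 of 26 and 2 and 3 of 22, and Hoxd3 and Hoxd4 draw all their counts from shared peaks. None of the 6 housekeeping genes tested was called.

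**Figure D2:**
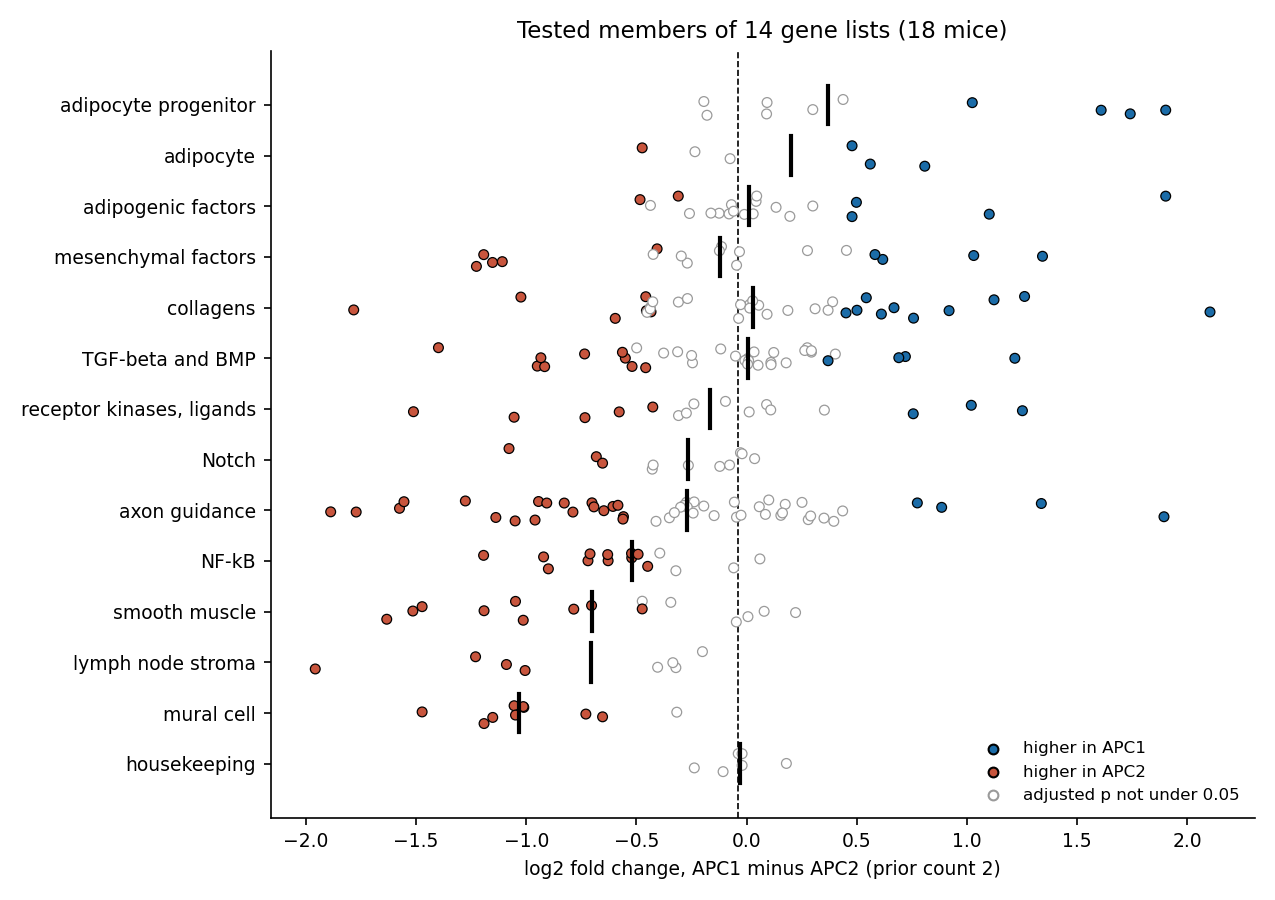
Log2 fold change (APC1 minus APC2, horizontal axis) of every tested member of 14 gene lists, over 18 paired mice. Filled points passed the test (blue higher in APC1, red higher in APC2), open points did not, black bars are list medians and the dashed line is the median of all genes tested, -0.04. The mural and NF-kB lists hold no blue point and the housekeeping genes lie between -0.24 and 0.18.

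Single peaks carry fewer counts than genes. Of 24000 peaks with at least 30 counts, 1781 (7.42%) were higher in APC1 and 5336 (22.2%) in APC2. With library totals the split was 2739 (11.4%) and 3787 (15.8%), and the median of all peaks moved from -0.16 to 0.01, so log2 values of peaks are to be read against a median of -0.16. The TMM factor reached 3.43 in the library with the fewest counts. DESeq2 called 19 and 169 peaks, and 603 and 566 with library totals. The called share of the tested peaks was larger away from gene starts. Within 2000 bases of a start 1.57% and 8.08% of 9364 peaks were called toward APC1 and APC2, against 15.1% and 36.3% of 3399 peaks over 100000 bases away. With library totals the same shares were 4.52% and 3.63% near a start and 19.8% and 28.5% in the far class, so the balance between the clusters near starts turned with the scaling. The median peak held 75 counts near a start and 43 in the far class. The minimum of 30 counts is a total over both clusters, so a sparse peak could pass it through the cluster where it is open. The part of this in the called shares was not tested.

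At single genes the called peaks ran along the whole body. Ebf2 had 6 tested peaks between 1.3 and 151 kb from its start, 5 of them higher in APC1 by 0.59 to 0.89 (log2) and none higher in APC2. Creb5 had 6 of 9 called toward APC1, from its start to 331 kb inside. All 5 peaks of Rnf150 and all 4 of Tnfsf13b were higher in APC2, the start peak included. Nos1ap had 4 of 5 peaks called, from 54.3 to 105 kb into the gene, while the peak at its start gave -0.32 and was not called. The 3 peaks of Pdgfra, from its start to 4.49 kb, gave -0.15, 0.03 and 0.04. Other runs of calls, singled out after their values were seen, were in Rbms3 (13 of 18 peaks), Ksr1 (12 of 15) and Klhl29 (12 of 17, with 1 the other way) toward APC2 and in Cped1 (5 of 5) toward APC1. In 182 of 11484 genes with a tested peak, peaks were called in both directions.

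**Figure D3:**
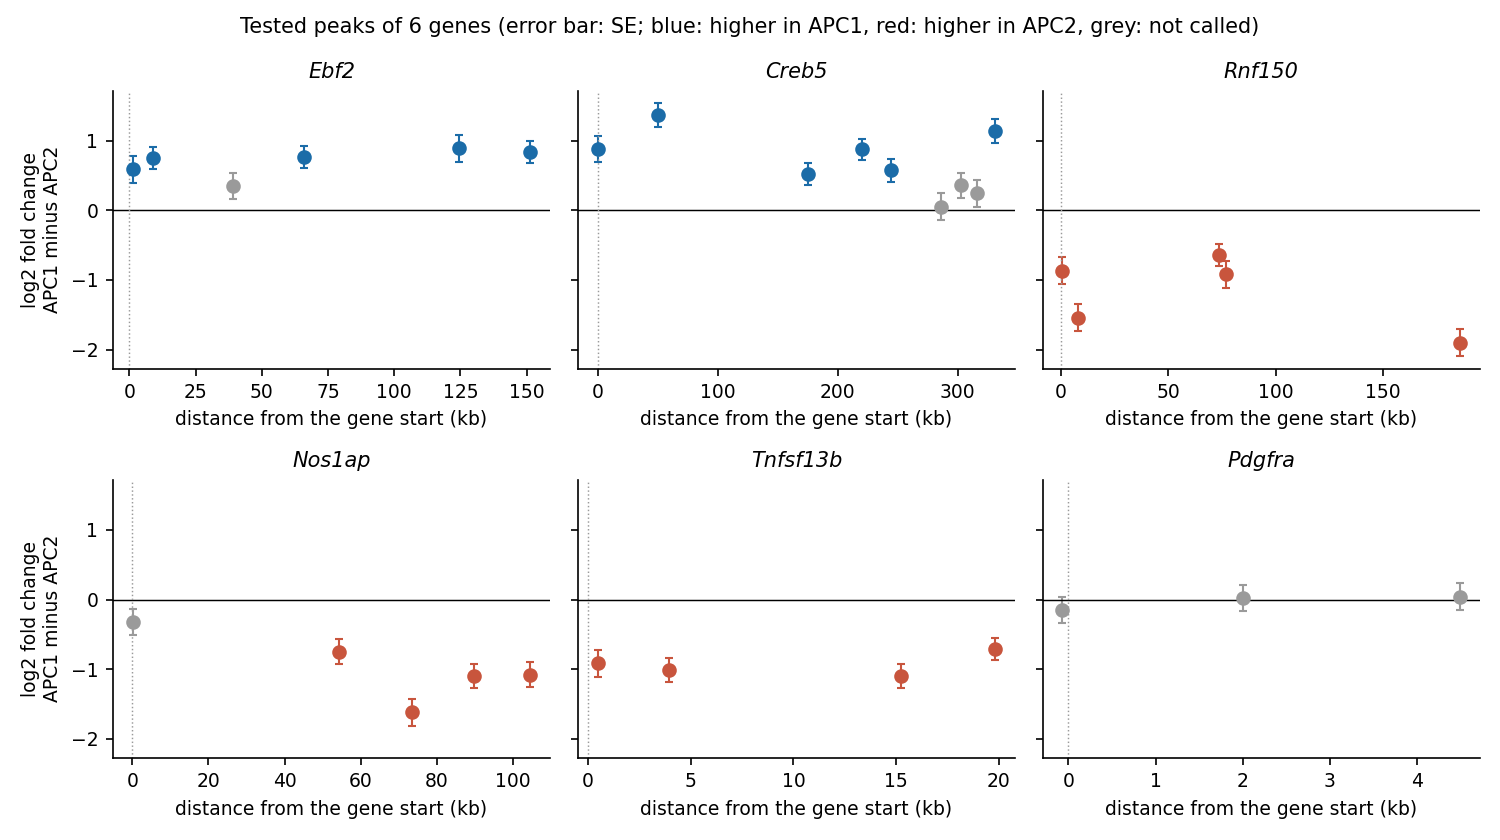
Log2 fold change (APC1 minus APC2, vertical axis) with its SE for each tested peak of 6 genes, by distance from the gene start in kb. Each SE is the fitted change divided by the root of the test's F statistic, which understates the error of sparse peaks. Blue and red peaks passed the test, grey ones did not. Ebf2 and Creb5 lie above 0, Rnf150 and Tnfsf13b below 0 throughout, and Nos1ap is called away from its start.

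Among peaks averaging 3 or more counts a library, the 8 with the largest changes toward APC2 included an intron of Rnf150 (chr8:83048370-83049950, 87.1 ± 31.3 CPM of peak counts in APC2 and 5.07 ± 11.8 in APC1, 0 in 14 APC1 libraries), a site 15411 bases upstream of the desmin gene Des (chr1:75344216-75345621, 91.0 ± 30.8 against 4.43 ± 8.15), an intron of Tnip1, 957 bases from its start (chr11:54961403-54962517, 73.9 ± 29.7 against 11.1 ± 19.0), and an intron of Rasa3 (chr8:13669684-13670684, 91.6 ± 38.3 against 19.8 ± 25.2). Tnip1 encodes a binding partner of the A20 protein, and Des and Rnf150 were themselves higher in APC2 as genes. The fitted log2 changes were -1.90, -1.85, -1.63 and -1.51, with 16 to 18 of 18 mice higher in APC2. Coordinates are as the file gives them, on the mm10 build.

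The stretches below, 120 bases of GRCm38 (mm10) around an NF-kB consensus match in these 4 peaks, are shown because that motif separated the clusters most among distal peaks. Capitals mark matches on either strand, and none of the stretches touches an annotated exon. Of the 8 largest changes toward APC2, the peaks in Spns2, Ppm1h and Susd1 hold no NF-kB match. Those in Ppm1h and Susd1 hold the AP-1 element TGANTCA.
Rnf150 intron, chr8:83049323-83049442, plus strand: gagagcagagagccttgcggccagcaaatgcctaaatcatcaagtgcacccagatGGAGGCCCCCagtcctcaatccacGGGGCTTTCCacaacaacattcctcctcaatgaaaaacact
upstream of Des, chr1:75345038-75345157, plus strand: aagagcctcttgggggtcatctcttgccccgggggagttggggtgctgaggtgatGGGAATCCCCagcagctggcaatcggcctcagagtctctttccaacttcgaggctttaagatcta
Tnip1 intron, chr11:54961583-54961702, plus strand: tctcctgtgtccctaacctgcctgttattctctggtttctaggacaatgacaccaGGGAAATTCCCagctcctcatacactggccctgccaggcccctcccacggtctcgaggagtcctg
Rasa3 intron, chr8:13670049-13670168, plus strand: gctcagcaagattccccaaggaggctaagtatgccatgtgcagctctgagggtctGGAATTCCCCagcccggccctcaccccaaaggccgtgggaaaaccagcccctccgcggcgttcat

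Toward APC1 the 8 largest with the same minimum had log2 changes from 0.65 to 1.17. Sparser peaks left out by it changed more, among them a peak 50.2 kb into Creb5 (1.36, 66.2 against 0 CPM). They lay near or in Angptl1, Kcnv2, Cblb, Bcas1, Il1rl2, Dlg4, Dpep1 and Sfi1. The first, 57343 bases upstream of Angptl1 (chr1:156780594-156781845), held 77.9 ± 32.8 CPM in APC1 against 12.5 ± 11.8 in APC2 and was higher in APC1 in 17 of 18 mice. A site 105852 bases from the start of Bcas1 (chr2:170321464-170322523) held 79.6 ± 43.7 against 16.5 ± 13.5 CPM and was higher in all 18. An intron of Cblb, a ubiquitin ligase (chr16:52093386-52096039), held 101 ± 69.4 against 29.0 ± 20.0 CPM. An intron of Sfi1 (chr11:3153642-3154426) held 84.0 ± 54.5 against 28.2 ± 22.2, and each was higher in APC1 in 16 mice. The Sfi1 peak was not called with DESeq2 or without nuclei with lymphocyte marker counts. Over all mice it held 86.7 CPM in APC1 and 121 in dendritic cells. The peaks at Dlg4 and Dpep1 were not called with DESeq2 either.

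The 3 stretches of GRCm38 from these peaks carry motifs that were more frequent in APC1, again in capitals and outside exons. The Cblb stretch holds a steroid receptor (NR3C) element and the others the AP-1 element TGANTCA. Of the 8 peaks, those near or in Angptl1, Kcnv2, Il1rl2 and Dpep1 hold neither motif. Those at Dlg4 and Dpep1 hold an NF-kB match.
Cblb intron, chr16:52094762-52094881, plus strand: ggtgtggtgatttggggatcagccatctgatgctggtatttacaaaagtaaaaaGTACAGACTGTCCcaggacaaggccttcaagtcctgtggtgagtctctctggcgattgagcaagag
beyond Bcas1, chr2:170322177-170322296, plus strand: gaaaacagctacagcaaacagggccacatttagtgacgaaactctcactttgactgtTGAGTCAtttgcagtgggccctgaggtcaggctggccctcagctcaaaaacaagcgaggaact
Sfi1 intron, chr11:3153797-3153916, plus strand: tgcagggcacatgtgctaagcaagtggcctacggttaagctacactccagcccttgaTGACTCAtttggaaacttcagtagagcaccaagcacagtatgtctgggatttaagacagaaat

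Counting by motif gave a measure that sums over many peaks and that could be tested by mouse. For each of 19 consensus motifs, searched on both strands, the share of a library's counts lying in tested peaks with a match was compared within mice (exact sign-flip permutation test, two-sided, adjusted over the 19). With 18 pairs the smallest p that the flips can give is 7.6e-06. A match is a string of letters in a peak and not evidence of a bound factor, and longer peaks hold more matches by their length.

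The NF-kB consensus had the largest difference toward APC2. Peaks with it took 29.5% to 33.3% of the counts in APC1 and 33.1% to 35.2% in APC2, and every mouse was higher in APC2 (means 30.5% ± 0.881 and 34.1% ± 0.543, adjusted p = 1.8e-05, exact test). In peaks over 2000 bases from a start the gap was 22.9% ± 1.06 against 30.2% ± 0.856, again in 18 of 18 mice. The consensus stood in 37.5% of the peaks higher in APC2, in 15.9% of those higher in APC1 and in 27.7% of the others, with 29.0% over all tested peaks. The motifs and the peak calls use the same counts, so these shares describe the calls and add no evidence to them. Forkhead (TGTTTAC, 11.99% against 11.3%) and the CArG box, the element of serum response factor (4.80% against 4.56%), were also higher in APC2 in 18 of 18 mice. Homeodomain (TAATTA), NFI and STAT (TTCCNGGAA) were higher in APC2 in 17 and PPAR-RXR in 14, by 0.47, 0.22, 0.20 and 0.05 percentage points.

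Toward APC1 stood AP-1 (TGANTCA) and NR3C, the element of glucocorticoid and related steroid receptors. AP-1 peaks took 25.9% ± 0.722 of the counts in APC1 and 23.3% ± 0.405 in APC2, in 18 of 18 mice, and 34.4% against 28.8% away from starts. AP-1 stood in 43.6% of the peaks higher in APC1, 23.5% of those higher in APC2 and 23.8% of the others, with 25.2% over all tested peaks. NR3C peaks took 1.59% ± 0.122 and 1.14% ± 0.100, in 18 of 18 mice, and stood in 4.55%, 0.843% and 1.10% of the same classes (1.30% over all tested peaks). The TWIST-type E-box (CATATG) was higher in APC1 in 16 mice, 9.20% against 8.91%. SP/KLF (GGGCGG, 62.4% against 58.0%), ETS (CCGGAAG, 22.0% against 20.4%) and the CTCF core (AGGGGGC, 27.8% against 26.5%) were higher in APC1 in all 18. Away from starts they still differed, by 3.56, 0.60 and 0.73 percentage points.

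EBF (TCCCNNGGG), the motif of the Ebf2 family, was higher in APC1 by 0.59 percentage points in 17 mice, but away from starts by 0.12 (11 mice, adjusted p = 0.45, exact test), so it passed only with start peaks included. C/EBP (TTGCNNAA) passed only away from starts, by 0.97 in 17 mice. TEAD (GGAATG), RUNX (TGTGGTT), MEF2 and the E-box CAGCTG were not called.

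**Figure D4:**
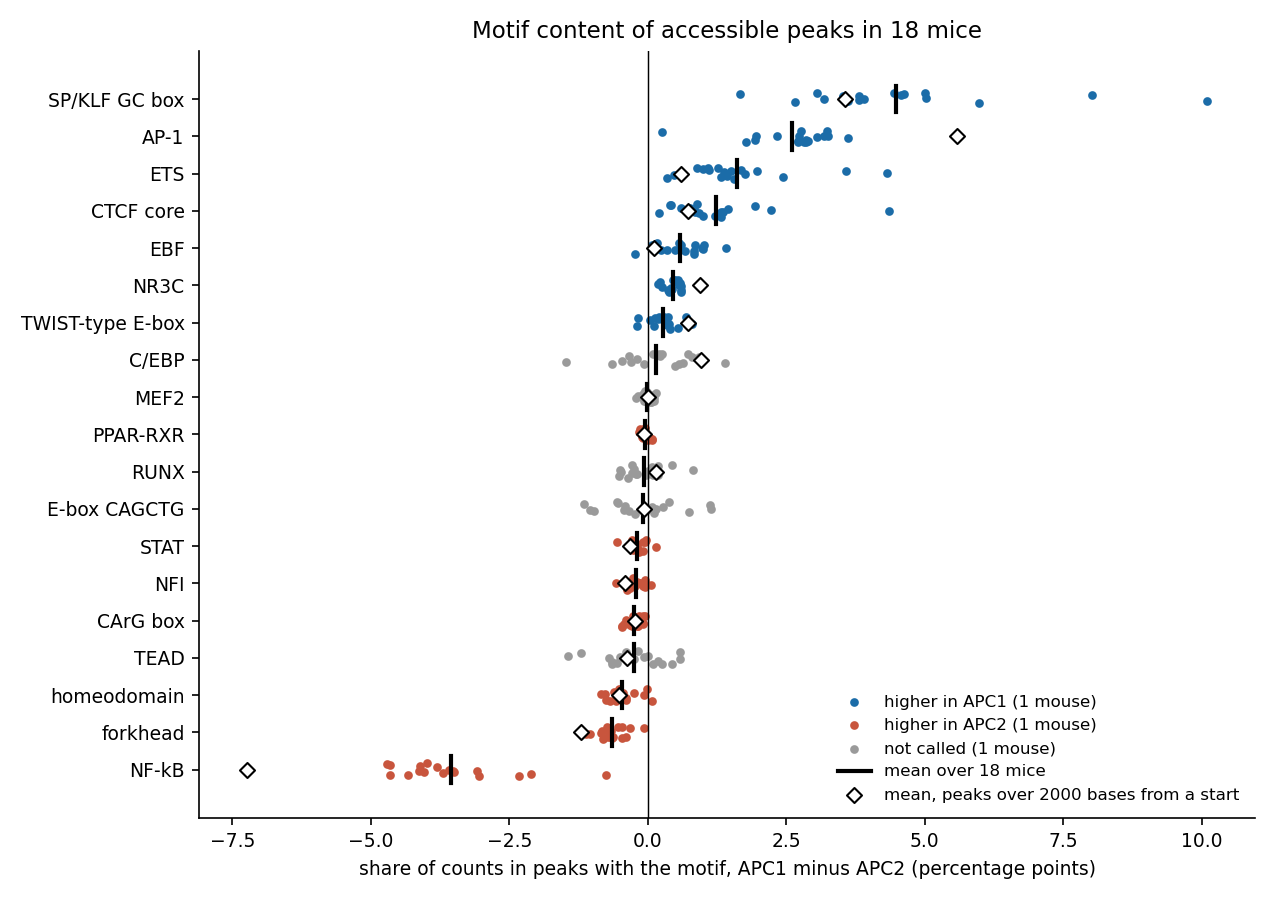
Difference in the share of counts lying in peaks with each of 19 motifs, APC1 minus APC2 in percentage points (horizontal axis). Points are the 18 mice, coloured where the motif passed the test, black bars their mean, and diamonds the mean over peaks more than 2000 bases from a gene start. NF-kB is below 0 and AP-1 above 0 in every mouse, and both diamonds lie farther out than the bars.

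No treatment effect on the difference between the clusters passed. The APC1 minus APC2 difference was tested between the 15 treated and the 3 day 0 mice over 11527 genes and between CL and cold mice over 10858 genes. Neither gave a gene at an adjusted p under 0.05 (edgeR, 0 in each), with 415 and 292 genes at an unadjusted p under 0.05 and 211 and 181 by DESeq2, which also made 0 calls. Day 0 had 3 mice. The mice left out for too few nuclei were all CL, replicates 1 and 3 of day 1 and replicate 2 of day 3. CL and cold mice were thus spread unequally over the days, and the comparison was not adjusted for day. Ebf2 stood at 432 ± 102 against 117 ± 136 CPM on day 0 (n = 3), 501 ± 173 against 92.2 ± 29.7 in cold (n = 9) and 583 ± 150 against 124 ± 73.0 in CL (n = 6), higher in APC1 in every mouse of each. Myh11 gave 64.9 ± 27.4 against 215 ± 89.8, 79.4 ± 26.9 against 247 ± 62.5 and 47.4 ± 42.5 against 194.5 ± 55.8 CPM in the same order, and Tnfsf13b 21.9 ± 21.6 against 312 ± 104, 40.7 ± 28.1 against 259 ± 75.6 and 66.6 ± 27.1 against 206 ± 43.1.

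The mix of the clusters varied more between mice than between treatments. APC1 made up 54.2% ± 19.4 of APC nuclei on day 0 (36.0% to 74.5%, n = 3) and 48.9% ± 23.7 in the 18 treated mice, a difference within the spread (exact permutation test, two-sided, p = 0.71). CL and cold mice averaged 53.6% ± 27.1 and 44.2% ± 20.3 (9 against 9, p = 0.41 by the same exact test). Within the treated mice the share ran from 22.6% (replicate 3 of day 1 of cold, 14 of 62 nuclei, exact 95% binomial interval 12.9% to 35.0%) to 100% (replicate 3 of day 1 of CL, 82 of 82, 95.6% to 100%). Intervals cover counting error only.

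Mice low in APC2 were low in lymphocytes. The 3 lowest mice stood apart with 11.9%, 14.1% and 36.8% of B and T lymphocytes among their nuclei, while the other 18 had 58.2% to 90.8%. As a percentage of the nuclei that were not lymphocytes, APC2 made up 0% (0 of 979, which allows up to 0.306%), 0.187% (2 of 1067) and 1.32% (13 of 982) in these 3 mice, and 2.97% to 14.1% in the others. APC1 made up 8.38%, 6.47% and 10.7% of the same nuclei, inside or above the 2.78% to 9.86% of the others. Within the 18 mice the APC2 percentage rose with the lymphocyte percentage (Pearson's r = 0.766, Spearman's rho = 0.763, permutation p adjusted over 6 relations 0.00024 and 0.0025), and r was 0.681 without the 2 mice farthest from the median lymphocyte percentage (adjusted p = 0.011, permutation test). The APC1 percentage, which has the same denominator, gave r = 0.229 and rho = 0.104 (adjusted p = 0.36 and 0.68, permutation test), and r = 0.398 without those mice. The relation was examined after the counts were seen, and how much lymph node the dissected tissue held was not tested.

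**Figure D5:**
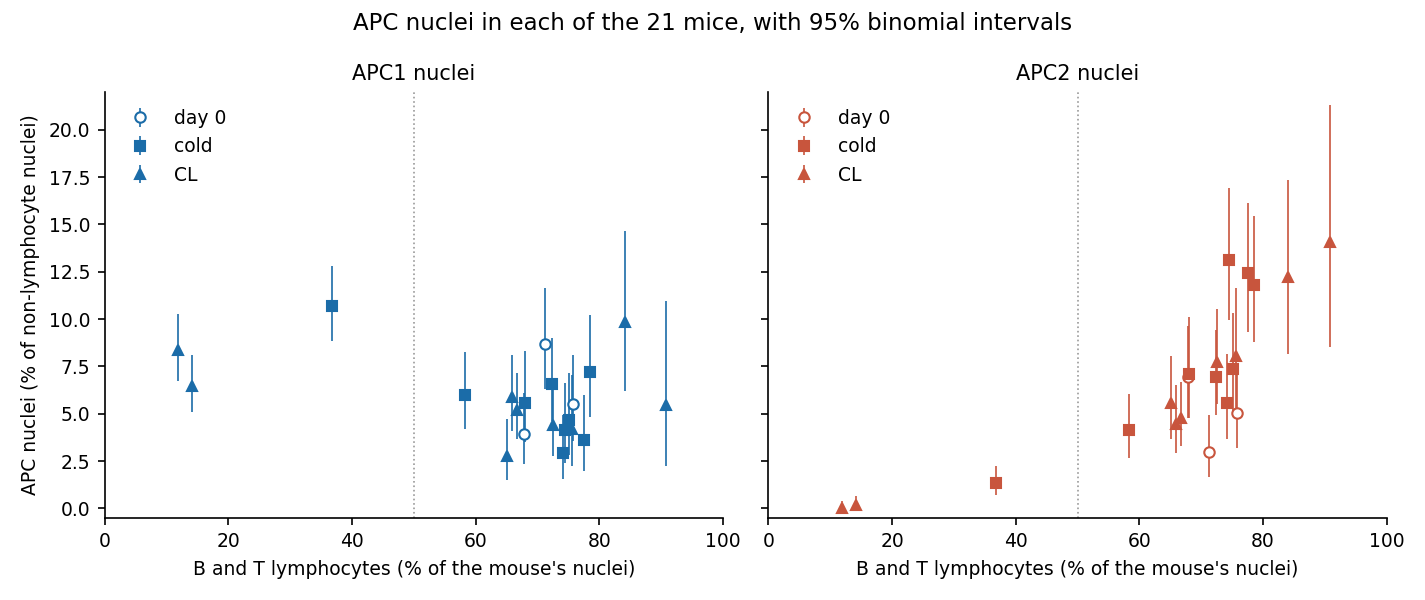
APC1 (left) and APC2 (right) nuclei as a percentage of the nuclei that were not lymphocytes (vertical axis), against the percentage of B and T lymphocytes among all nuclei (horizontal axis), in each of the 21 mice with exact 95% binomial intervals. The 3 mice left of the dotted line at 50% have 0% to 1.32% APC2 but 6.47% to 10.7% APC1.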

How the data were processed

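Nuclei of inguinal adipose tissue from 21 mice were profiled by combinatorial-indexing single-nucleus ATAC-seq. The deposited matrix holds counts that the authors reduced to 0 or 1 for each of 189598 peaks in 32552 nuclei, on mm10. The submitters' processing notes name Bowtie2, SAMtools, MACS2 and Signac. Their clustering of these nuclei gave the names APC1 and APC2. GEO's 4 samples are sequencing lanes that each hold all mice, so mouse, group and cluster were taken from the deposited nucleus table.

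Counts were summed per mouse and cluster, and per gene over the GENCODE vM21 body and 2000 bases upstream. Genes with at least 50 and peaks with at least 30 counts over all libraries were tested with edgeR 4.0.16 (R 4.3.3) by the quasi-likelihood test with TMM factors and a prior count of 2, and p-values were adjusted by Benjamini-Hochberg. Both clusters of a mouse come from the same animal, so the mouse was a block. Without this pairing block 987 genes were higher in APC1 and 1564 in APC2. DESeq2 1.42.0 was an alternative. Motif shares and library measures were tested by exact sign flips over 18 mice with scipy 1.17.1. Mice are the replicates. The study states that the experiment was run as 3 independent batches, but the labels assign no mouse to one. A batch of mice is shared by both clusters of a mouse, and its part in the comparisons between treatments was not tested.

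The test code was tested on simulated data. The comparison, gene lists and motifs were chosen with earlier results of these data known. Genes named were the 7 that the study names for these clusters, per direction the 12 that changed most among genes averaging 10 or more counts a library whose direction held in 80% or more of the mice, and up to 4 per list, with further list members named beside their counts. Peaks named were the 8 largest changes in each direction among those averaging 3 or more counts a library. Some genes that these rules name are not reported here.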

Additional observations from a re-analysis of the deposited data

Results flagged for a closer look

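Of 76 groups of mice examined for a mouse far from the others of its treatment, 11 held one. Chance gives about 1 in 20 where values are normally distributed. Groups made mostly of 0 are not, so the 11 are no measure of an excess over chance. In cold mice, Cd34 in APC2 was 18.7 CPM in replicate 1 of day 3 and 0 in the other 8. Ly6a in APC1 was 218 CPM in replicate 1 of day 7, with the next at 79.1, and Acta2 in APC1 was 129 CPM in replicate 2 of day 7, with the next at 63.3. Replicate 2 of day 1, whose APC1 library had 16 nuclei, stood apart in 3 motif differences, at 0.26 percentage points for AP-1 (next 1.93), 4.36 for the CTCF core (next 1.93) and 10.1 for SP/KLF (next 5.98).

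In CL mice, Ly6a in APC2 was 9.4 CPM in replicate 3 of day 3 and 0 in the other 5, and Acta2 in APC1 was 32.9 CPM in replicate 1 of day 7 and 0 in the other 5. Replicate 1 of day 3, whose APC1 library had 13 nuclei, held 340 CPM on Pdgfrb in APC1 (next 111) and an NR3C difference of 0.186 percentage points (next 0.483). Replicate 3 of day 7 had a RUNX difference of 0.44 percentage points. The part of library size in these values was not tested.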

How the results depend on the processing

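Calls of genes thinned with the counts that entered. The genes higher in APC1 and in APC2 were 194 and 207 with edgeR's filterByExpr (668 tested), 546 and 614 at 4 times the minimum total, 122 and 139 in the 2 mice with at least 30 nuclei of each cluster, 131 and 173 with nuclei thinned to 700 counts (1677 tested), 511 and 934 without nuclei that carried lymphocyte marker counts, and 99 and 318 with peaks within 2000 bases of a start only, or 160 and 255 with library totals as well. Single peaks depended far more on the setting. They numbered 19 and 169 with DESeq2 (16751 peaks without an adjusted p), 603 and 566 with DESeq2 on library totals, 2739 and 3787 with library totals in edgeR, 6631 and 9159 with no filter, 8 and 49 at 4 times the minimum, 249 and 1348 without the nuclei with lymphocyte marker counts, 0 and 0 in the 2 mice (edgeR, 1 of 115 at an unadjusted p under 0.05) and 0 and 1 in thinned nuclei (edgeR, 35 of 765 at an unadjusted p under 0.05). No peak passed filterByExpr, so that fit could not be made. The mouse block moved no count by over 1.5 times: without the pairing 987 and 1564 genes and 2023 and 5658 peaks were called. Leaving out 1 mouse gave 685 to 912 and 1412 to 1533 genes, and 1110 to 1999 peaks higher in APC1, the lowest without replicate 1 of day 3 of cold, which has the most APC1 nuclei. Leaving out 1 mouse also moved the treated minus day 0 difference in APC1 share between -14.43 and 4.842 percentage points, the B cell marker difference between -0.002999 and 0.0008449 and the myeloid one between -0.0007551 and 0.001819. In paired mice only, the CL minus cold share was -1.36. Over all deposited peaks the motif differences were -0.534 for TEAD and -0.535 for CAGCTG, then called, 0.132 for EBF and -0.0317 for PPAR-RXR, no longer called, and 0.144 for RUNX, which changed sign. Away from starts EBF gave 0.118, C/EBP 0.967, RUNX 0.148 and MEF2 0.000853; MEF2 was 0.00434 with at least 5 nuclei, and TEAD -0.376 without nuclei with lymphocyte marker counts. Of the 78 named genes called over their whole bodies and also tested with start peaks alone, 46 stayed called in the same direction, 29 were no longer called and 3 changed sign. In thinned nuclei 65 of the named called genes were tested. There 46 stayed called and 19 did not, among them Abcc9, Col5a1, Ltbp1, Nfia, Nfib, Notch1, Tbx15 and Vcl. Start peaks alone turned Esr1 (-0.02), Tnfrsf1b (0.185, or 0.244 with library totals), Tnfrsf1a (0.027, 0.093), Pdgfra (-0.028), Zfp423 (-0.11, or -0.005 with library totals), Fap (0.25, 0.32) and Fgfr2 (0.018, 0.14), with library totals also Col4a1 and Col4a2 (0.014 each), and the 2 mice turned Nfia (0.03), Tbx15 (0.094), Col4a1 (0.115) and Tnfrsf1b (0.245). Library totals turned Car3 (0.022) and Tnfrsf1a (0.042, or 0.048 with DESeq2), and Tnfrsf1a also gave 0.063 at 4 times the minimum and 0.112 in thinned nuclei. Leaving out 1 mouse moved Pdgfra between -0.031 and 0.13, Rela between -0.032 and 0.13, Car3 between -0.163 and 0.036 and Tnfrsf1a between -0.184 and 0.012. The cause of these changes was not tested. DESeq2 with library totals and start peaks with library totals were chosen after seeing the data.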
